A study of Homo sapiens with 10 samples.

Results

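The aldehyde dehydrogenases (ALDHs) considered were ALDH1A1, ALDH1A3, ALDH2, ALDH3A1, ALDH3A2, ALDH3B1 and ALDH7A1, and every row of the deposited annotated region table with 1 of these 7 gene symbols was taken. This gave 24 of 67387 regions, each 502 bp wide. ALDH3B1 had 10 regions, ALDH3A2 had 6, ALDH7A1 had 5, ALDH3A1 had 2 and ALDH1A1 had 1. ALDH1A3 and ALDH2 had no row. By the deposited annotation, 19 regions were in promoter classes, within 3 kb of an annotated transcription start site (TSS), and 5 were distal intergenic or 3′ UTR regions, called other regions here.

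The values are read counts of H3K27ac, a histone acetylation found at active promoters and enhancers, measured by ChIP-seq in H1975, an established lung adenocarcinoma cell line with mutant EGFR. DMSO cells were grown free of drug for 21 days and then in DMSO for 3 days. Osimertinib drug-tolerant persister cells (osimertinib DTP, DTP below), the cells that survive prolonged drug, were kept in 500 nM of the EGFR inhibitor osimertinib for 24 days. Osimertinib DTP + AZD5153 cells spent 21 days in osimertinib at 500 nM and then 3 days with AZD5153, a BET bromodomain inhibitor, at 150 nM. The titles of this group hold the word combo, but the labels do not state outright whether osimertinib was continued. Each group had 3 libraries, described as biological triplicates, and 1 pooled input library was made. All groups came from this 1 cell line, and the labels do not say how the triplicate cultures were kept apart. The deposited peak list of DTP replicate 3 bears the cell line name H1875, while the labels and the count tables give H1975 for that library, and the labels were followed.

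ALDHs oxidise aldehydes to carboxylic acids with NAD or NADP as cofactor. The ALDH1A enzymes make retinoic acid from retinaldehyde, while ALDH3 enzymes and ALDH2 clear aldehydes that arise from lipid peroxidation, ethanol or fatty alcohols. High ALDH activity is a known trait of drug-tolerant and stem-like tumour cells, including those of the lung.

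Total counts over the 169637 regions of the full count table ranged from 6263443 to 10463351 per library. Replicate 3 of DTP + AZD5153 had the lowest total and stood apart: its Spearman correlation with replicates 1 and 2 was 0.445 and 0.367, against 0.805 to 0.893 for all other replicate pairs within groups. Results of that group are therefore also given without this library. It also enters the spread used for DTP against DMSO, since 1 fit spans the 9 libraries. All 6 epithelial marker genes examined had acetylated promoter regions, with mean levels of 48.8 to 332 CPM (counts per 1000000 counts of a library, scaled by TMM, the correction of edgeR for library composition) per gene. None of 4 haematopoietic genes had an annotated region, and promoter regions were present for 1 of 3 endothelial genes (CDH5, 28.6 CPM) and for 3 of 4 fibroblast genes (13.3 to 17.8 CPM). In 9 of the 24 ALDH regions (37.5%) the mean CPM over the libraries was below the CPM of the pooled input, as in 37.8% of annotated regions, with ratios of 0.402 to 4.03, and 4 of the 6 ALDH regions called in any comparison were among these 9. Both CPM values are relative to counts within the 169637 regions only, so a ratio below 1 does not show a lack of enrichment. The ALDH7A1 region chr5:126594098-126594599, at a ratio of 0.759, was under a peak in all 9 libraries.

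The promoters at which the acetylated regions of ALDH7A1, ALDH3A2 and ALDH3B1 lay are shown from RefSeq (GRCh38.p14), 5′ to 3′ on the strand of the gene, as the 250 bases before a start site. Capitals mark CCAAT boxes (CCAAT), GC boxes (GGGCGG) and E-boxes (CACGTG), searched on both strands. The ALDH7A1 sequence (chr5:126595220-126595469, minus strand) overlapped the region just upstream of the gene by 207 bp. The ALDH3A2 sequence (chr17:19648501-19648750, plus strand), of the inner of its 2 listed starts, overlapped the strongest ALDH3A2 region by 180 bp. The ALDH3B1 sequence (chr11:68010077-68010326, plus strand) ends just before the strongest ALDH region of all.
ALDH7A1: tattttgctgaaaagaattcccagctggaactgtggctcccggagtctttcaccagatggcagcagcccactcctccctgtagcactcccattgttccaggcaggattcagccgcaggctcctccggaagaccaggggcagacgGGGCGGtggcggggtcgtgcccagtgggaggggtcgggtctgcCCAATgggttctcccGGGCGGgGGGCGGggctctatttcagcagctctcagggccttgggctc
ALDH3A2: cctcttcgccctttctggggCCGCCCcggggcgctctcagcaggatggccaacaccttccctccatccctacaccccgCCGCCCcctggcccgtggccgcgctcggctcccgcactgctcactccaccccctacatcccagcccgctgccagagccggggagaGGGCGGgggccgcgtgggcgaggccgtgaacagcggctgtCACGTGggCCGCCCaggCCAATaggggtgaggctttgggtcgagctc
ALDH3B1: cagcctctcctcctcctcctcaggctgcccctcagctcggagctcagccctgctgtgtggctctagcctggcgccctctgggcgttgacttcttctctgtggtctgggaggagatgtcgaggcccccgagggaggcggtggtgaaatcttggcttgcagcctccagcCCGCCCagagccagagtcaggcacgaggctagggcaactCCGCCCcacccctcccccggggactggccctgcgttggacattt
ALDH7A1 had 1 CCAAT box and 3 GC boxes, ALDH3A2 had 1 CCAAT box, 4 GC boxes and 1 E-box, and ALDH3B1 had 2 GC boxes. Among 35116 RefSeq promoter windows of 300 bases, 34.6% held CCAAT, 45% GGGCGG and 7.26% CACGTG. The table listed 7 windows for 5 of the genes. The TATA box, spelled TATAAA, was in none of the 7 and in 11.5% of all windows. The AP-1 motif, spelled TGANTCA, was likewise in none of the 7 and in 7.71% of all windows. The antioxidant response element core TGACNNNGC, to which NRF2 binds, was found in 13.3% of all windows and in none of these. The retinoid receptor motif AGGTCA was found in 13.8% of all windows and in none of these. ALDH2 and ALDH3A1 had no entry. The windows of the sequences shown had a GC content of 64.3% (ALDH7A1), 73.3% (ALDH3A2) and 66.7% (ALDH3B1), against a median of 58.7% over all windows. The remaining windows had 40.3% (ALDH1A1), 81.7% (ALDH1A3), 55% (outer ALDH3A2 start) and 63.7% (outer ALDH3B1 start).

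The first comparison asked which ALDH regions differed between osimertinib persisters and untreated cells. 2 of the 24 regions were called, both lower in DTP: 1 upstream of ALDH3A2 and the distal region assigned to ALDH1A1. A region was called at an adjusted p under 0.05 in the edgeR quasi-likelihood test, adjusted over 157919 regions, and 10.7% of all regions were called in this comparison (5.58% higher and 5.13% lower). No ALDH region was called higher by edgeR, while DESeq2 called 2 higher and 2 lower, and 3 were higher and 2 lower at an unadjusted p under 0.05. Of all 157919 regions, DESeq2 called 12497 higher and 15406 lower, and 40895 had an unadjusted p under 0.05 in edgeR. The median log2 fold change was −0.0072 over the 24 regions and 0.18 over all annotated regions. The CPM ranges of the groups did not overlap for 4 regions higher and 4 lower in DTP, against 21.2% and 22.7% of annotated regions (43.9% in either direction).

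The second comparison set DTP + AZD5153 against DTP. No ALDH region was called by edgeR or DESeq2, 3 had an unadjusted p under 0.05, and 0% of all regions were called by edgeR (7011 at an unadjusted p under 0.05, and 21 higher and 73 lower by DESeq2). The log2 fold change was above 0 for 22 of the 24 regions, with a median of 0.81 against 0.07 over all annotated regions. The 22 include all 10 ALDH3B1 regions, which are neighbours and not independent. In replicate 3 of DTP + AZD5153, 1 peak of 11880 bp covered 8 of these 10. When that library was left out, the log2 fold change was above 0 for 18 of the 24 regions, with a median of 0.29 against −0.17 over all tested regions. The groups did not overlap for 4 ALDH regions, all higher, against 3.8% higher and 5.44% lower among annotated regions (9.24% in either direction).

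The third comparison set DTP + AZD5153 against DMSO, and 5 of 24 ALDH regions were called, against 18.1% of all regions (9.05% higher and 9.01% lower). 4 were higher, namely 2 distal regions and 1 promoter region of ALDH7A1 and the 3′ UTR region assigned to ALDH3A2, and 1 was lower, upstream of ALDH3A2. The median log2 fold change was 0.96 over the ALDH regions, which include the 10 neighbouring ALDH3B1 regions, and 0.24 over annotated regions. Without replicate 3 of DTP + AZD5153, 4 were higher and 2 lower, and the median was 0.21 against −0.11 over all tested regions. The groups did not overlap for 11 regions higher and 5 lower, against 18.6% and 21.1% of annotated regions (39.7% in either direction). Each comparison shares 1 group with each of the others, so their values are not independent.

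**Figure D1:**
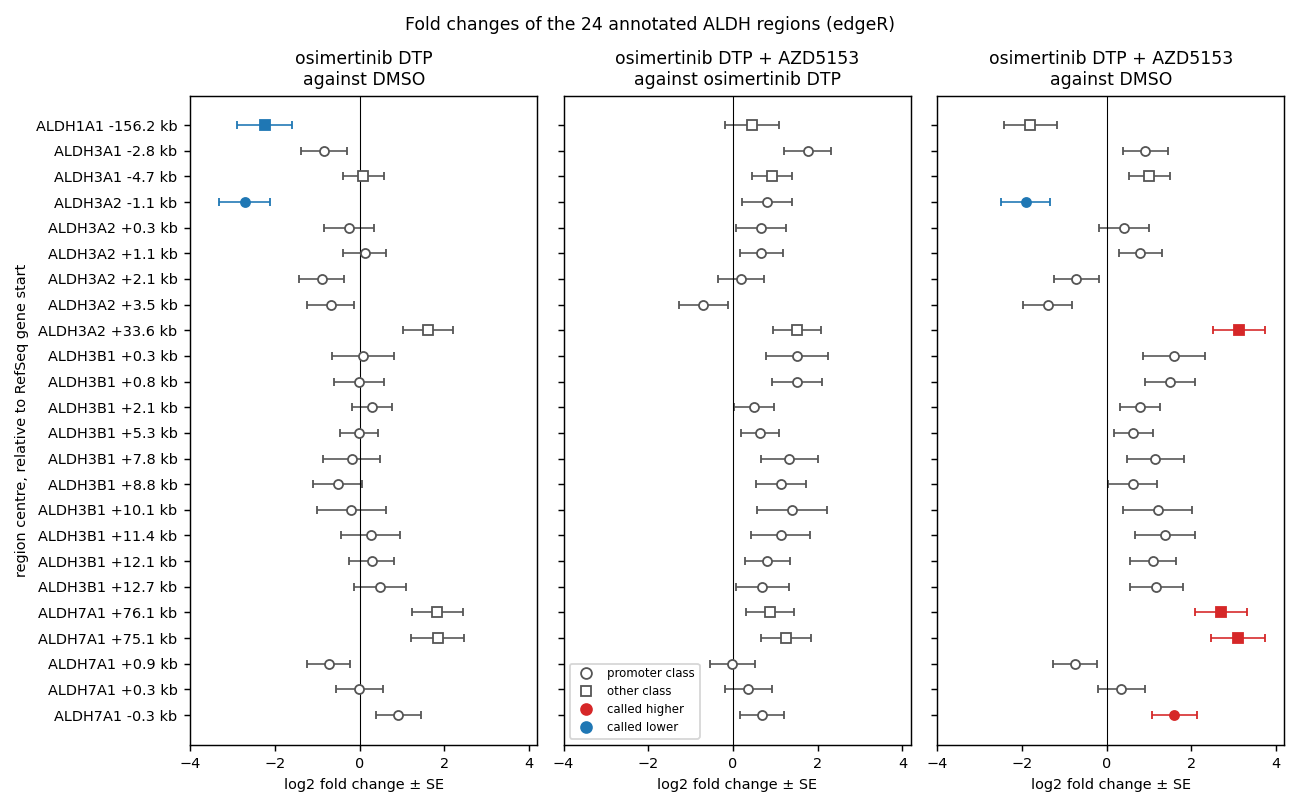
Log2 fold change ± SE (x axis, edgeR) of each of the 24 ALDH regions (y axis, named by gene and distance of the region centre from the RefSeq gene start in kb) in the 3 comparisons. Filled symbols are called regions, 2 in the left panel, 0 in the middle panel and 5 in the right panel, and squares are regions outside promoter classes.

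ALDH1A1, a cytosolic enzyme that converts retinaldehyde to retinoic acid and a widely used marker of stem-like tumour cells, had a single annotated region, distal intergenic at chr9:73108969-73109470. It lay 155916 bp beyond the bounds of the gene in RefSeq, within the noncoding gene LOC105376081, and no region of the full count table lay within 2 kb of the gene. Its level was 5.58, 12.3 and 9.46 CPM in DMSO, 2.65, 0.826 and 2.2 CPM in DTP, and 2.58, 4.15 and 0.958 CPM in DTP + AZD5153 (replicates 1 to 3). All 6 treated libraries were below all 3 DMSO libraries. The region fell 4.72-fold in DTP (log2 fold change −2.24 ± 0.64 SE, adjusted p = 0.0341). With the replicate number as a block the adjusted p was 0.0616, without TMM scaling it was 0.0590, and it was 0.0517 to 0.174 when any 1 of the 6 DMSO and DTP libraries was left out. Without replicate 3 of DTP + AZD5153 the value was −2.24 ± 0.49 and its adjusted p was 0.00153. For DTP + AZD5153 the difference from DMSO was −1.80 ± 0.63 (adjusted p = 0.0571). It was called without its replicate 2 (−2.31, adjusted p = 0.0358) or 3 (−1.44, adjusted p = 0.0392) and by DESeq2 (adjusted p = 0.0264). Without DMSO replicate 2 the adjusted p of this difference was 0.212. The mean CPM of the region was 0.529 of the input CPM. A peak was called over the region in 3 DMSO, 1 DTP and 1 DTP + AZD5153 library.

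For ALDH1A3, another retinaldehyde dehydrogenase, and ALDH2, the mitochondrial enzyme that oxidises acetaldehyde, the full count table was searched within 2 kb of the RefSeq bounds. These regions were chosen after the results had been seen. The region across the ALDH1A3 start held 18, 23 and 24 counts in DMSO, 14, 39 and 13 in DTP and 13, 15 and 41 in DTP + AZD5153, and the groups overlapped. At the ALDH2 start, 2 regions held between 0 and 46 counts per library. Of the 4 ALDH1A3 and 2 ALDH2 regions none was called by edgeR in any comparison, and the log2 fold changes ranged from −1.05 to 1.52.

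ALDH3A1, a cytosolic enzyme that oxidises medium-chain and aromatic aldehydes, had regions upstream of its start only. The nearer region, chr17:19750860-19751361, was in the class 1 to 2 kb from a TSS. It held 4.41, 3.28 and 6.37 CPM in DMSO, 2.84, 1.51 and 3.39 CPM in DTP, and 8.25, 10.0 and 8.24 CPM in DTP + AZD5153. The libraries of DTP + AZD5153 were the highest, without overlap with either group. Against DTP the log2 fold change was 1.76 ± 0.55, with an unadjusted p of 0.00508 and an adjusted p of 1.00 in edgeR (0.0834 without replicate 3 of DTP + AZD5153), and the mean CPM was 0.402 of the input CPM. Peaks were called over it in all 3 of those libraries, in 1 DMSO library and in 0 DTP libraries.

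The farther ALDH3A1 region, chr17:19752744-19753245, was distal intergenic and ranked at percentile 98.6 of the annotated regions by mean CPM. Its level was 32.4, 40.5 and 30.4 CPM in DMSO, 28.9, 53.6 and 27.8 CPM in DTP, and 54.6, 70.0 and 83.4 CPM in DTP + AZD5153. Again the libraries of DTP + AZD5153 were above all others. The difference from DMSO, a log2 fold change of 1.01 ± 0.48, was not called (adjusted p = 0.156), but was called when the annotated regions alone were tested (0.97, adjusted p = 0.0379). With 1 library left out the difference was not called in any fit (adjusted p = 0.0621 to 0.425). A peak was called over this region in all 9 libraries. At the ALDH3A1 start the full table listed low counts only, with at most 35 in any of 8 further regions within 2 kb of the gene.

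ALDH3A2, the membrane-bound fatty aldehyde dehydrogenase mutated in Sjögren-Larsson syndrome, had 5 promoter-class regions and 1 other region, whose log2 fold changes differed in sign along the gene. The region 889 bp upstream of its first TSS, chr17:19646746-19647247, held 5.4, 12.1 and 9.46 CPM in DMSO, 1.9, 0.826 and 1.30 CPM in DTP, and 2.98, 2.54 and 1.53 CPM in DTP + AZD5153. All treated libraries were below all DMSO libraries. The region fell 6.56-fold in DTP (log2 fold change −2.71 ± 0.60, adjusted p = 0.0102) and 3.75-fold in DTP + AZD5153 against DMSO (−1.91 ± 0.58, adjusted p = 0.0295). With the replicate block the adjusted p against DMSO in DTP was 0.0225. That call was lost without DMSO replicate 2 (0.0819), DMSO replicate 3 (0.0534), DTP replicate 2 (0.0623) or DTP replicate 3 (0.0644). Without replicate 3 of DTP + AZD5153 its adjusted p was 0.00025. The call for DTP + AZD5153 was lost when only both groups were fitted (0.0762), and without DMSO replicate 2 (0.141) or 3 (0.104) or replicate 1 (0.0656) or 2 (0.0613) of the treated group. Peaks covered the region in 3 DMSO libraries, 0 DTP libraries and 1 DTP + AZD5153 library, a pattern shared by 1.38% of annotated regions. Its mean CPM was 0.564 of the input CPM.

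The strongest ALDH3A2 region, chr17:19648179-19648680, overlapped part of the promoter sequence shown above. Its level was 24.5, 34.9 and 28.2 CPM in DMSO, 16.3, 47.1 and 10.7 CPM in DTP, and 29.0, 24.5 and 63.2 CPM in DTP + AZD5153. The groups overlapped, replicate 2 of DTP and replicate 3 of DTP + AZD5153 were the highest of their groups, and the log2 fold changes of −0.24 ± 0.59 and 0.41 ± 0.59 against DMSO were not called (adjusted p = 0.853 and 0.683). A peak was called over it in all 9 libraries. The other 3 promoter-class regions of ALDH3A2, centred 1145 to 3477 bp inside the gene, were not called in any comparison, with log2 fold changes of −1.39 to 0.79.

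The remaining ALDH3A2 region, chr17:19681523-19682024, was annotated as 3′ UTR and assigned to ALDH3A2. It lay 3927 bp beyond the RefSeq bounds of ALDH3A2, within SLC47A2, a gene of a renal drug transporter. It held 1.53, 1.02 and 0.796 CPM in DMSO, 3.79, 2.75 and 3.79 CPM in DTP, and 8.25, 15.9 and 5.37 CPM in DTP + AZD5153. The 3 groups did not overlap, with DMSO lowest. The region rose 8.73-fold in DTP + AZD5153 against DMSO (log2 fold change 3.13 ± 0.61, adjusted p = 0.00341), and in each fit without 1 library (adjusted p at most 0.0339). For DTP relative to DMSO the value was 1.61 ± 0.60 (adjusted p = 0.0898), called when only those groups were fitted (adjusted p = 0.0215) or without replicate 3 of DTP + AZD5153 (0.0144). In DTP the adjusted p was 0.339 without DMSO replicate 3 and 0.0796 with the replicate block. The mean CPM was 0.428 of the input CPM. Peaks were called over it in 0 DMSO, 0 DTP and 3 DTP + AZD5153 libraries, as in 0.175% of annotated regions.

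Within the ALDH3A2 gene, the full count table held 8 further regions that were not in the annotated table and were examined after the results had been seen. 4 of them were called higher in DTP + AZD5153 against DMSO and 1 in DTP against DMSO, where 9.05% and 5.58% of all 157919 regions were called higher. None of the 4 was called without DMSO replicate 2 (adjusted p = 0.0665 to 0.121). The latter, chr17:19673844-19674345, held 12, 7 and 4 counts in DMSO and 45, 29 and 34 in DTP (log2 fold change 2.38 ± 0.63, adjusted p = 0.0230). That call was lost when any 1 of the 6 DMSO and DTP libraries was left out (0.0506 to 0.149). All called regions lay 15876 to 25958 bp inside the gene.

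**Figure D2:**
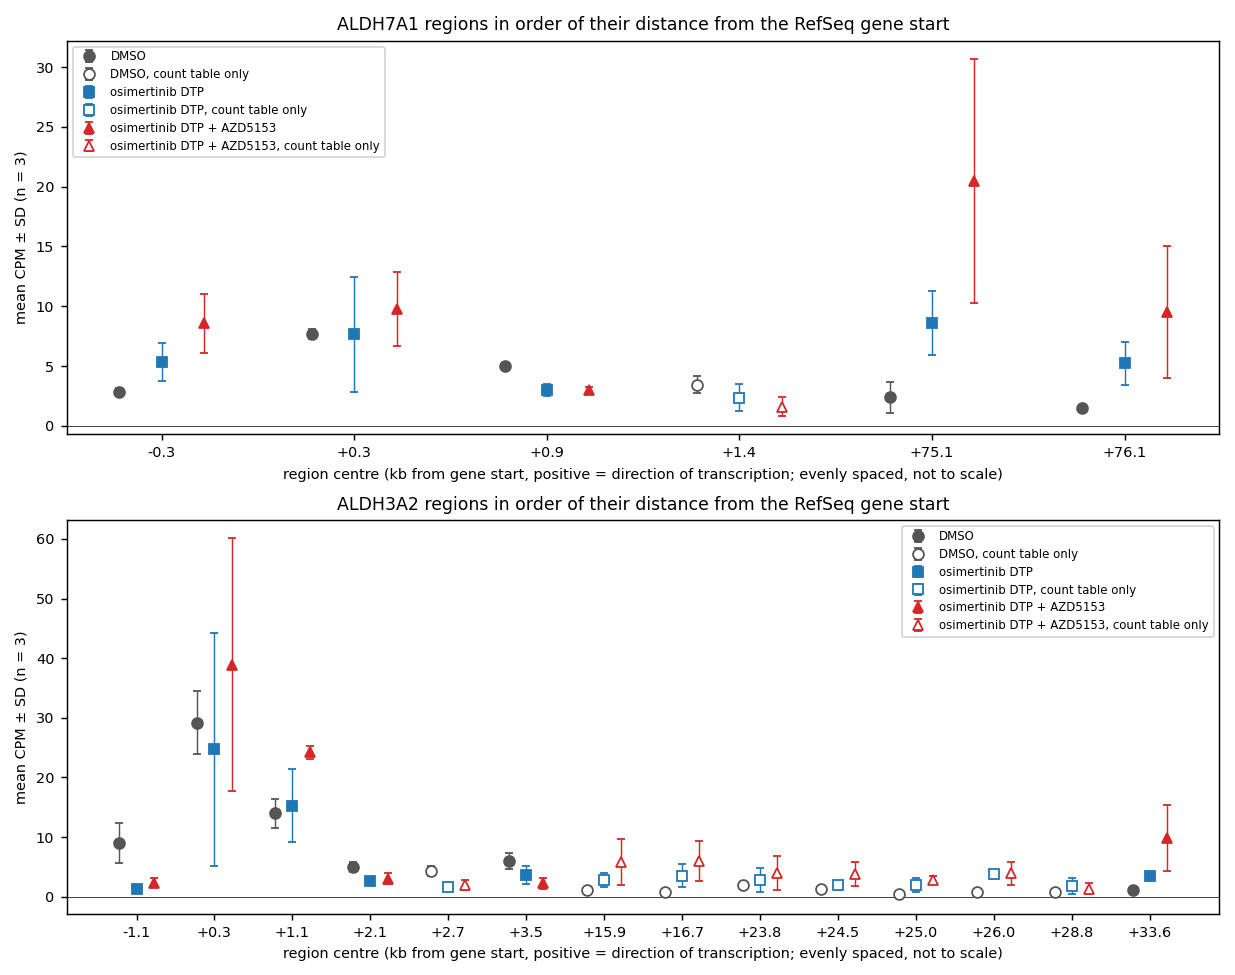
Mean CPM ± SD (n = 3) of the ALDH7A1 (top) and ALDH3A2 (bottom) regions in the 3 groups, in order of their distance from the RefSeq gene start in kb (evenly spaced, not to scale). Open symbols are regions of the full count table only. DMSO was highest at the ALDH3A2 region with its centre at −1140 bp from the start and lowest at the ALDH7A1 regions 75056 and 76087 bp from the start.

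ALDH3B1, an enzyme that oxidises aldehydes from lipid peroxidation at membranes, had 10 regions, all in promoter classes of its several transcripts. The 2 strongest, chr11:68010361-68010862 and chr11:68013570-68014071, ranked at percentiles 99.95 and 99.92 of the annotated regions. The former held 63.2, 74.6 and 53.4 CPM in DMSO, 61.7, 115 and 56.8 CPM in DTP, and 82.3, 87.9 and 160 CPM in DTP + AZD5153. Its libraries of DTP + AZD5153 lay above DMSO without overlap, but the log2 fold change of 0.79 ± 0.48 was not called (adjusted p = 0.275), and it was 0.41 without replicate 3 of that group and −0.092 with a loess offset. No ALDH3B1 region was called by edgeR in any comparison. At an unadjusted p under 0.05 there were 2 in DTP + AZD5153 against DMSO and 1 in DTP + AZD5153 against DTP. Of all 157919 regions, 50404 and 7011 were below that value in these comparisons.

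The other 8 ALDH3B1 regions were weaker and were marked by a single library. Their median level was 5.63 to 10.3 CPM in the DMSO libraries, 7.54 to 8.47 CPM in DTP, and 12.5, 6.17 and 39.3 CPM in replicates 1, 2 and 3 of DTP + AZD5153. Replicate 3 was the highest of the 9 libraries in each of the 8 regions, and also in the 2 strongest regions (160 and 138 CPM). In that library the widest peak was 11880 bp wide and covered 8 of the 10 regions, while in the other 8 libraries the widest peak was 5835 to 6115 bp and covered 2.

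**Figure D3:**
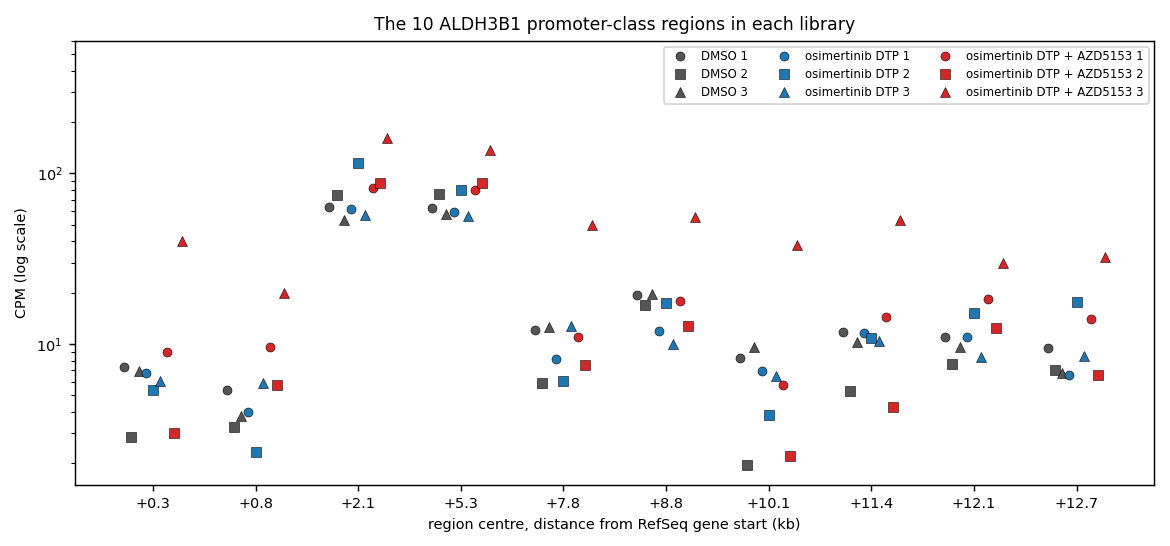
CPM (y axis, log scale) of the 10 ALDH3B1 regions in each of the 9 libraries, by distance of the region centre from the RefSeq gene start (x axis, kb). Replicate 3 of DTP + AZD5153 (red triangles) is the highest library at all 10 regions, with a median of 39.3 CPM at the 8 weaker ones.

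ALDH7A1, or antiquitin, oxidises an aldehyde of lysine breakdown and also betaine aldehyde, and its loss causes pyridoxine-dependent epilepsy. It had 3 promoter-class regions and 2 distal regions, the latter 21427 and 22458 bp beyond the RefSeq 3′ end of the gene. The distal region chr5:126519913-126520414 held 0.989, 3.58 and 2.59 CPM in DMSO, 8.91, 5.78 and 11.1 CPM in DTP, and 20.8, 30.6 and 10.2 CPM in DTP + AZD5153. Every treated library was above every DMSO library, and the treated groups overlapped each other. The region rose 8.59-fold in DTP + AZD5153 against DMSO (log2 fold change 3.10 ± 0.65, adjusted p = 0.00473), and was called in each fit without 1 library (adjusted p at most 0.0338).

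The neighbouring distal region chr5:126518882-126519383 held 1.44, 1.54 and 1.39 CPM in DMSO, 3.51, 5.10 and 7.09 CPM in DTP, and 9.14, 15.2 and 4.22 CPM in DTP + AZD5153. It showed the same order, with DMSO below all treated libraries, and rose 6.53-fold in DTP + AZD5153 against DMSO (2.71 ± 0.61, adjusted p = 0.00696; 0.0501 without DMSO replicate 3). For DTP relative to DMSO, these 2 regions had log2 fold changes of 1.85 ± 0.62 (adjusted p = 0.0641) and 1.84 ± 0.60 (adjusted p = 0.0566). Both were called there when only the libraries of these 2 groups were fitted (adjusted p = 0.00363 and 0.00502), by DESeq2 (0.0311 and 0.0291), when annotated regions alone were tested (0.0463 and 0.0476), without replicate 2 of DTP + AZD5153 (0.0449 and 0.0430) and without its replicate 3 (0.00608 and 0.0045). With the replicate block neither region was called in DTP against DMSO (adjusted p = 0.0726 and 0.0659). That adjusted p reached 0.240 without DMSO replicate 1 for the former and 0.217 without DMSO replicate 3 for the latter. The mean CPM of the 2 regions was 1.09 and 3.37 times the input CPM. Peaks were called over both regions in 0 DMSO libraries and in all 6 treated libraries. This pattern was found at 3 ALDH regions, all of ALDH7A1, and at 3.66% of annotated regions.

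The third ALDH7A1 region with that pattern, chr5:126595263-126595764, lay 44 bp upstream of the RefSeq start and covered most of the promoter sequence printed above. Its level was 2.70, 3.17 and 2.59 CPM in DMSO, 4.27, 7.16 and 4.59 CPM in DTP, and 10.1, 9.80 and 5.75 CPM in DTP + AZD5153. All treated libraries were above all DMSO libraries. The region rose 3.04-fold in DTP + AZD5153 against DMSO (1.60 ± 0.54, adjusted p = 0.0452). The call was lost when any DMSO library, DTP replicate 1 or 3, or replicate 1 or 2 of DTP + AZD5153 was left out (adjusted p = 0.0635 to 0.193), without TMM scaling (0.0882) or when only both groups were fitted (0.0657), and was kept without replicate 3 of DTP + AZD5153 (1.81, adjusted p = 0.00366). For DTP relative to DMSO the value was 0.91 ± 0.53 (adjusted p = 0.301). The mean CPM was 0.695 of the input CPM.

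The strongest ALDH7A1 promoter region, chr5:126594718-126595219, begins at the RefSeq start and runs into the gene. It held 7.91, 7.88 and 7.17 CPM in DMSO, 5.02, 13.2 and 4.69 CPM in DTP, and 7.25, 8.88 and 13.2 CPM in DTP + AZD5153. The groups overlapped, and the log2 fold changes against DMSO were −0.0084 ± 0.56 and 0.35 ± 0.56 (adjusted p = 0.995 and 0.719). In the next region inward, chr5:126594098-126594599, the mean level was 4.98 ± 0.22 CPM (SD, n = 3) in DMSO, 3.01 ± 0.51 CPM in DTP and 2.97 ± 0.28 CPM in DTP + AZD5153. All treated libraries were below DMSO there, but the differences were not called (−0.73 ± 0.51 and −0.75 ± 0.52, adjusted p = 0.411 and 0.347). Peaks were called over both regions in all 9 libraries.

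**Figure D4:**
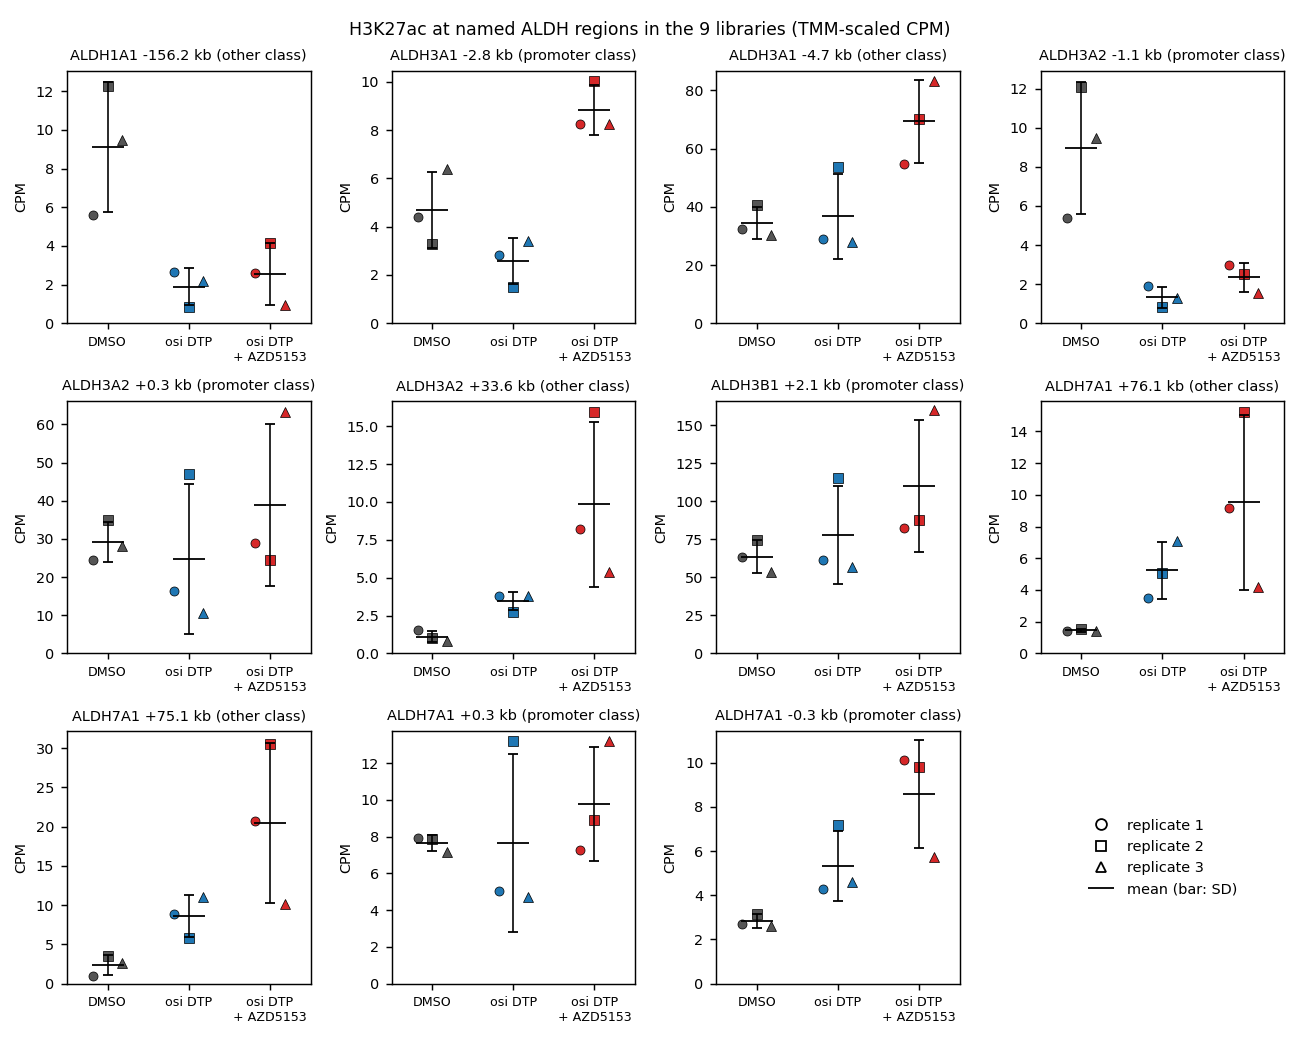
CPM (y axis, TMM-scaled) of 11 named ALDH regions in each of the 9 libraries, with group means and SD (n = 3); titles give the distance of the region centre from the RefSeq gene start. At the ALDH1A1 region and the ALDH3A2 region with its centre at −1140 bp all treated libraries lie below DMSO, and at the ALDH7A1 distal regions all treated libraries lie above it.

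Of the 24 ALDH regions, 12 were under a peak in all 9 libraries, against 40.5% of annotated regions. They comprised 7 ALDH3B1 regions, 2 regions each of ALDH3A2 and ALDH7A1, and the distal ALDH3A1 region.

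Counts were also summed per gene over its promoter-class regions and, separately, over its other regions. The promoter sum of ALDH3A1 holds 1 region and repeats its counts. None of the 4 ALDH promoter sums was called by edgeR or DESeq2 in any comparison, and 1 had an unadjusted p under 0.05 in each of the comparisons that include AZD5153. Of all 21039 sums, 5856 were below that value in DTP + AZD5153 against DMSO, and 620 against DTP. In DTP against DMSO there were 4725. DESeq2 called 1713 sums higher and 1547 lower in DTP against DMSO, and 2434 and 1958 in DTP + AZD5153 against DMSO. Relative to DMSO, the 4 sums had log2 fold changes of −0.85 ± 0.54 (ALDH3A1), −0.41 ± 0.45 (ALDH3A2), 0.09 ± 0.39 (ALDH3B1) and 0.05 ± 0.49 (ALDH7A1) in DTP. For DTP + AZD5153 they were 0.91 ± 0.53, 0.16 ± 0.45, 0.88 ± 0.39 and 0.46 ± 0.49. Their median was 0.67 there and −0.18 in DTP, against 0.42 and 0.35 over all promoter sums. The value for ALDH3B1 was 0.29 without replicate 3 of that group.

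Among the 4 sums of other regions, those of ALDH1A1, ALDH3A1 and ALDH3A2 hold 1 region each and repeat its counts. The 1 region of ALDH3A2 is the one within SLC47A2. Of the 4 sums, 2 were called in DTP against DMSO, where 10.7% of 21039 sums were called (5.58% higher and 5.11% lower). The ALDH7A1 sum rose (1.85 ± 0.57, adjusted p = 0.0443) and the ALDH1A1 sum fell (−2.24 ± 0.63, adjusted p = 0.0305). With the replicate block neither was called (adjusted p = 0.0748 and 0.0968), and without TMM scaling the ALDH1A1 sum was not (0.0547). The ALDH7A1 call was lost without any 1 DMSO library, without DTP replicate 1 or 3 or without replicate 1 of DTP + AZD5153 (0.0574 to 0.202). The ALDH1A1 call was lost without DMSO replicate 2 or 3 or any 1 DTP library (0.0590 to 0.155). In DTP + AZD5153 against DMSO, where 15.8% of sums were called (8.58% higher and 7.18% lower), the ALDH7A1 sum (2.97 ± 0.59, adjusted p = 0.0024) and the ALDH3A2 sum (3.13 ± 0.60, adjusted p = 0.00201) rose. In DTP + AZD5153 against DTP, 0% of sums were called by edgeR (620 at an unadjusted p under 0.05) and 1 higher and 11 lower by DESeq2, none of them a sum of the ALDHs examined.

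Of 12 further human ALDH genes, 11 had a promoter sum and 4 another sum. In DTP against DMSO, 1 was called higher and none lower by edgeR, with 3 higher and none lower at an unadjusted p under 0.05, and DESeq2 called 1 higher. It was the sum of 5 other regions of ALDH1B1, a mitochondrial enzyme close to ALDH2, at 21.2 ± 4.1 CPM in DMSO and 79.0 ± 5.4 CPM in DTP (1.90 ± 0.44, adjusted p = 0.00893; 0.0613 without DMSO replicate 2 and 0.0894 without DMSO replicate 3). Against DMSO in DTP + AZD5153, the promoter of ALDH8A1, an enzyme of tryptophan and retinoid metabolism, rose (2.08 ± 0.62, adjusted p = 0.0284; 2.66 without DMSO replicate 1), as did the other region of ALDH1L2, a mitochondrial folate enzyme (1.63 ± 0.54, adjusted p = 0.0472). The former was lost without DMSO replicate 2 or 3 or replicate 1 of DTP + AZD5153 (0.0652 to 0.165) and with the replicate block (0.0574). The latter was lost without any of 7 libraries, all but DTP replicate 2 and DTP + AZD5153 replicate 3 (0.0646 to 0.204).

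Among 19 genes of retinoid metabolism and retinoid receptors, which act on the substrates and products of the ALDH1A enzymes, 13 had a promoter sum. DTP had 1 promoter sum that rose and 1 that fell, and DTP + AZD5153 had 3 that rose and 1 that fell against DMSO. Over all 21039 gene sums, 5.58% rose and 5.11% fell in DTP, and 8.58% rose and 7.18% fell in DTP + AZD5153. The median log2 fold change of the 13 sums was −0.29 and −0.22, against 0.35 and 0.42 over all promoter sums. Of 11 sums of other regions, 2 fell in DTP and none rose by edgeR (2 at an unadjusted p under 0.05, 2 by DESeq2), and 1 rose and 1 fell in DTP + AZD5153. The promoter of RARB, a retinoic acid receptor that is itself induced by retinoic acid, rose in DTP (2.63 ± 0.61, adjusted p = 0.0103; 0.0747 without DMSO replicate 3) and in DTP + AZD5153 (3.10 ± 0.62, adjusted p = 0.00275; 2.52 without replicate 2 of that group). The promoter of CYP26A1, the enzyme that degrades retinoic acid, rose in DTP + AZD5153 (2.84 ± 0.66, adjusted p = 0.00686). Named after their values were seen, the promoter (−1.73 ± 0.46, adjusted p = 0.0238) and other regions (−1.91 ± 0.52, adjusted p = 0.0253) of STRA6, a retinol uptake receptor, fell in DTP. Other regions of DHRS9, a retinol dehydrogenase, fell in both treated groups (−2.28 ± 0.62 and −2.58 ± 0.64, adjusted p = 0.0255 and 0.0110), the latter −3.68 without replicate 1 of DTP + AZD5153. The promoter of DHRS3, a retinaldehyde reductase, rose in DTP + AZD5153 (2.02 ± 0.54, adjusted p = 0.0159; 1.25, adjusted p = 0.0384, without replicate 3 of that group), as did other regions of RARB (2.16 ± 0.65, adjusted p = 0.0312). The STRA6 calls were lost without DMSO replicate 2 or 3 or DTP replicate 1 or 3 (0.0856 to 0.161), the DHRS9 call in DTP without DMSO replicate 2 or 3 or DTP replicate 2 or 3 (0.0688 to 0.124), the DHRS3 call without any 1 DMSO library (0.0562 to 0.0809) or with the replicate block (0.0755), and the RARB call at other regions without any 1 DMSO library or replicate 1 or 2 of DTP + AZD5153 (0.0668 to 0.155) or with the replicate block (0.102).

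Among 16 genes of the NRF2 pathway, which controls detoxifying enzymes including ALDH3A1, 14 had a promoter sum. Against these and the marker genes stand the shares over all gene sums, 5.58% higher and 5.11% lower in DTP and 8.58% higher and 7.18% lower in DTP + AZD5153. None was called by edgeR or DESeq2 in DTP (2 lower at an unadjusted p under 0.05). Against DMSO in DTP + AZD5153, 1 promoter sum, that of AKR1B10, fell (−1.78 ± 0.58, adjusted p = 0.0464, and 0.0581 to 0.193 without DMSO replicate 2 or 3, any 1 DTP library or replicate 1 of DTP + AZD5153), and none rose by edgeR (5 at an unadjusted p under 0.05, 1 by DESeq2). The other regions of AKR1B10, an aldo-keto reductase that also acts on aldehydes, fell in DTP (−2.81 ± 0.54, adjusted p = 0.00378) and in DTP + AZD5153 (−3.82 ± 0.57, adjusted p = 0.000571), from 89.9 ± 38 CPM in DMSO to 12.8 ± 2.1 and 6.28 ± 3.1 CPM. The other regions of GCLC, the catalytic subunit of glutathione synthesis, rose in DTP + AZD5153 (1.70 ± 0.53, adjusted p = 0.0362), and lost the call without any 1 DMSO library or replicate 1 or 2 of DTP + AZD5153 (0.0594 to 0.208). Of the 11 sums of other regions these were the calls, 1 lower in DTP and 1 higher and 1 lower in DTP + AZD5153. Fibroblast marker genes moved in the same comparisons. Against DMSO in DTP + AZD5153, 1 of their 3 promoter sums (COL1A2, 2.38 ± 0.71, adjusted p = 0.0294) and their 1 sum of other regions (PDGFRA, 3.29 ± 0.66, adjusted p = 0.00279) rose, and the latter also rose in DTP (2.32 ± 0.64, adjusted p = 0.0276, and 0.0600 to 0.166 without DMSO replicate 2 or 3 or DTP replicate 2). Without replicate 3 of DTP + AZD5153 the COL1A2 value was 1.33 (adjusted p = 0.112), and that call was also lost without DMSO replicate 2 or 3 (0.139 and 0.150) or with the replicate block (0.139). Of the 5 sums of other regions of epithelial markers, EPCAM fell in both treated groups (−1.52 ± 0.47 and −1.48 ± 0.47, adjusted p = 0.0477 and 0.0412), and in DTP + AZD5153 CDH1 fell (−1.59 ± 0.41, adjusted p = 0.0142) and KRT18 rose (1.21 ± 0.35, adjusted p = 0.0246). Each of these epithelial calls was lost without at least 1 library, among them DMSO replicate 2 (0.117 to 0.296), and with the replicate block both EPCAM calls were lost (0.0964 in DTP and 0.0718 in DTP + AZD5153). Their part in the ALDH values was not tested.

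The genes whose promoter sums were most like those of each ALDH over the 9 libraries, by Pearson correlation of log2 CPM among 12895 genes, were GGT1 (0.80) and IRF1-AS1 (0.75) for ALDH3A1 and RRNAD1 and ZNF185 (both 0.98) for ALDH3A2. For ALDH3B1 they were MEDAG (0.97) and LINC00963 (0.96), and SUGT1P1 (0.96) was among those for ALDH7A1. These are descriptions over 9 libraries that share their groups and depth.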

How the data were processed

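H3K27ac ChIP-seq libraries were made from 75 nt single-end reads with an Active Motif antibody. The submitters' processing notes name the build hg38 and the tools BWA 0.7.17, MACS2 2.2.6, featureCounts 2.0.0 and ChIPseeker 1.29.1. Whether duplicate reads were removed is not given in the sources used here. No count exceeded 1152, the number that 1 read per position and strand allows in a region. The deposited counts are raw reads per region of 502 bp for 169637 regions, and the authors annotated 67387 of them with a gene and a distance to a TSS, by a rule not given in the sources used here. Deposited peak lists, called per library, give fold enrichment as a ratio and q as −log10 values. A peak counted as over a region when they shared at least 1 bp.

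Regions with low counts were removed (filterByExpr, minimum count 10), library sizes were scaled with TMM, and edgeR 4.0.16 (limma 3.58.1, R 4.3.3) was run as a robust quasi-likelihood fit of the 9 libraries with a mean per group. All 24 ALDH regions passed the filter. P-values were adjusted by Benjamini-Hochberg over all 157919 regions or 21039 gene sums at 0.05. They measure the spread between cultures within groups, estimated from all 9 libraries together. Replicate 3 of DTP + AZD5153 therefore also enters the p-values of DTP against DMSO. At the ALDH7A1 region chr5:126519913-126520414 the SE of that comparison was 0.62 with this library and 0.48 without it, with log2 fold changes of 1.85 in both fits. Gene sums used the library sizes and TMM factors of the region fit. CPM values are TMM-scaled. The members and gene lists were chosen with earlier results of these data known, and regions of the full table near the genes were added after values had been seen. Named regions were the strongest promoter-class and other region per gene and every called region. From the gene lists, at most 3 called sums with the smallest p were named by rule, and further retinoid sums were named after their values had been seen. Some genes that these rules name are not reported here.

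Alternatives were DESeq2 1.42.0, no TMM, a loess offset (span 0.3), no filter, annotated regions alone, only both groups, a replicate block, leaving out each library, and peaks at −log10 q of at least 10 or covering at least 50% of a region. The edgeR fit of regions was also run on simulated counts with known changes. Those libraries were drawn independently, so the run does not test how the fit handles pairing or an outlying library. For DTP and DMSO libraries of the same number, the deviations from the mean of each group correlated across regions (Pearson r = 0.334, 0.355 and 0.324). The numbers in the titles may therefore pair these libraries, but the labels state no pairing. The TMM factors also went with the number, at 1.18, 0.933 and 1.14 in DMSO and 1.19, 0.784 and 1.12 in DTP. Whether pairing or library composition gave the correlations was not tested. For DTP + AZD5153 and DMSO the values were −0.018, 0.553 and 0.362, and for DTP + AZD5153 and DTP they were 0.243, 0.026 and −0.240. Pairing by number is unclear in those comparisons as well. The replicate block was fitted to all 9 libraries, so it also paired the DTP + AZD5153 libraries by number. Its results are therefore not a test of the pairing of DTP and DMSO alone. All values are relative to the total signal of a library, so a global change in acetylation cannot be seen, and fewer cells with the mark and less of it per cell cannot be told apart.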

Additional observations from a re-analysis of the deposited data

How the results depend on the processing

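The count of called ALDH regions in DTP against DMSO (2) was 4 with DESeq2, 1 without TMM, 1 with the replicate block, 4 when annotated regions alone were tested, 5 when only both groups were fitted, and 0 to 5 with 1 library left out. In DTP + AZD5153 against DMSO (5) it was 7 with DESeq2 (5 higher and 2 lower), 3 when only both groups were fitted and 2 to 6 with 1 library left out. No ALDH region was called in DTP + AZD5153 against DTP in any of these fits. Called ALDH gene sums in DTP against DMSO (2) were 1 without TMM, 0 with the replicate block and 0 to 3 with 1 library left out, and in DTP + AZD5153 against DMSO (2) they were 2 to 3. For the replicate block, the adjusted p of the ALDH1A1 region in DTP against DMSO was 0.0616, and the block ended no other call of an ALDH region, nor any call of an ALDH gene sum in DTP + AZD5153 against DMSO. The ALDH regions under a peak in all 9 libraries (12) numbered 8 with −log10 q of at least 10 and 10 with at least 50% of the region covered.

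No called ALDH value changed sign. Values that did, all uncalled, were in DTP against DMSO the log2 fold change of the ALDH3B1 region chr11:68010361-68010862 (−0.19 with the loess offset), of the distal ALDH3A1 region (−0.021 with DESeq2, −0.040 without TMM, −0.30 with the loess offset), of the ALDH7A1 region chr5:126594718-126595219 (0.069 without filter, 0.026 with only both groups), and the sums of ALDH3A1 other (−0.040), ALDH3B1 promoter (−0.024) and ALDH7A1 promoter regions (−0.10) without TMM, the last also with the replicate block (−0.0073). In DTP + AZD5153 against DMSO they were the ALDH3B1 region (0.79, and −0.092) and the strongest ALDH3A2 region (−0.20) with the loess offset and the ALDH3A2 promoter sum (−0.077) without TMM. With 1 library left out, the ranges that crossed 0 in DTP against DMSO were −0.047 to 0.56 (ALDH3B1 region), −1.06 to 0.21 (strongest ALDH3A2 region), −0.22 to 0.35 (distal ALDH3A1 region and its sum), −0.60 to 0.34 (ALDH7A1 region), −0.066 to 0.28 (ALDH3B1 promoter sum) and −0.31 to 0.31 (ALDH7A1 promoter sum). They were −0.067 to 0.79 for the ALDH1A1 region and −0.067 to 0.80 for its sum in DTP + AZD5153 against DTP, and −0.14 to 0.63 for the strongest ALDH3A2 region and −0.085 to 0.32 for its promoter sum in DTP + AZD5153 against DMSO. Uncalled sums of other regions became called for ALDH3A2 in DTP against DMSO with only both groups (adjusted p = 0.0101) or without replicate 3 of DTP + AZD5153 (0.0227), and in DTP + AZD5153 against DMSO for ALDH3A1 with only both groups (0.0443) and for ALDH1A1 with DESeq2 (0.0292) or without replicate 2 of DTP + AZD5153 (0.0323). Among the listed genes, calls were lost without TMM for ALDH1L2, COL1A2 and GCLC, other regions of RARB, and DHRS9 and PDGFRA in DTP (0.0505 to 0.0665), and with only both groups for ALDH1L2, CDH1, COL1A2, the AKR1B10 promoter, and other regions of RARB and of EPCAM in DTP + AZD5153 (0.0521 to 0.0973). The cause was not tested.

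Over all regions, calls in DTP against DMSO were 8814 higher and 8102 lower, and 12497 and 15406 with DESeq2. With 1 library left out they ranged from 668 and 482 (without DMSO replicate 2) to 22898 and 20524 (without replicate 3 of DTP + AZD5153). In DTP + AZD5153 against DMSO they were 14294 and 14222, and 20355 and 18870 with DESeq2. Without TMM they were 9578 and 15277, and the median of all regions moved from 0.23 to −0.022. Leaving out replicate 3 of DTP + AZD5153 moved it to −0.11, with 29780 higher and 28002 lower, against 3957 and 4542 without DMSO replicate 2. The ALDH1A1 region held 5 to 120 counts per library.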
